A study of Mus musculus with 8 samples.

Results

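Newborn mouse calvaria, the flat bones of the skull vault, carried RNA of skeletal muscle, and the 40 genes described here encode the contractile, structural, calcium-handling and metabolic proteins of muscle fibres. The genes were chosen by name, as a list of skeletal muscle genes, with earlier results of these data known. All 40 were found among the 49315 gene IDs of the count table. The libraries came from calvaria of female C57BL6 mice aged 2 to 3 days, 4 of them wild type (WT1 to WT4) and 4 Girk3-/- (KO1 to KO4). Girk3, whose gene symbol is Kcnj9, is a subunit of a G protein-gated inward rectifier potassium channel. The null allele and the source of the wild type mice (littermates or not) were not given in the sources used here, and the labels name no treatment. Each bone sample was frozen whole, so its RNA came from every cell type of the dissected tissue, and in such bulk RNA fewer muscle cells and less RNA per muscle cell cannot be told apart.

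Muscle fibres contract when myosin heads of the thick filament pull on actin of the thin filament, under the control of calcium that the troponin complex senses. Many of these proteins come in isoforms that mark a fibre's age and speed. Embryonic (Myh3) and neonatal (Myh8) myosin heavy chains fill the fibres of newborn rodents and later give way to the adult fast chains IIx (Myh1), IIa (Myh2) and IIb (Myh4), while the slow chain (Myh7) marks slow fibres and is also a chain of the heart.

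Library totals ran from 35392465 to 54290034 counts. Values are given as CPM, that is, counts scaled to each library's total in the tested genes times its TMM factor. The targeted gene does not check the labels, because Kcnj9 had 0, 0, 1 and 4 counts in WT1 to WT4 and 2, 5, 7 and 9 counts in KO1 to KO4. In muscle RNA 3 libraries stood apart, 1 of them wild type and 2 of them knockout. The 40 genes summed to 0.287%, 0.222%, 0.00688% and 0.210% of all counts in WT1 to WT4, and to 0.402%, 0.0129%, 0.0290% and 0.114% in KO1 to KO4. WT3, KO2 and KO3 were thus the low libraries, and each group held libraries of both kinds. For 38 of the 40 genes these 3 libraries were the lowest 3 of the 8, the exceptions being Myh4 and Myh7. WT3 was the lowest library for 35 genes, and KO1 was the highest for 29. Over the 30 genes with more than 3 counts in their lowest library, the highest library exceeded the lowest by a median of 91.9-fold, and by more than 100-fold for 15 of them. Myh8 spanned 1139.5-fold, Myh3 1036-fold and Acta1 898-fold, whereas Actn3 spanned 3.81-fold, Tnnc1 4.35-fold and Eno3 4.56-fold. The osteoblast genes Col1a1, Col1a2, Runx2, Sp7, Alpl, Ibsp and Bglap, which mark the bone-forming cells of the tissue, summed to between 137018 and 181444 CPM, mostly from the collagens Col1a1 and Col1a2. Of these 7 genes 1 passed the edgeR test between genotypes, where 1.32% of all tested genes did. Groups that did not overlap in CPM were seen for 10.6% of all tested genes. Bglap, which encodes the bone matrix protein osteocalcin and has closely similar neighbouring copies, fell from 1112, 1128, 1166 and 879.8 CPM in WT1 to WT4 to 808, 849.8, 709 and 701 CPM in KO1 to KO4, a log2 change of -0.48 ± 0.101 (SE) with an edgeR adjusted p of 0.0383, and the groups did not overlap.

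**Figure D1:**
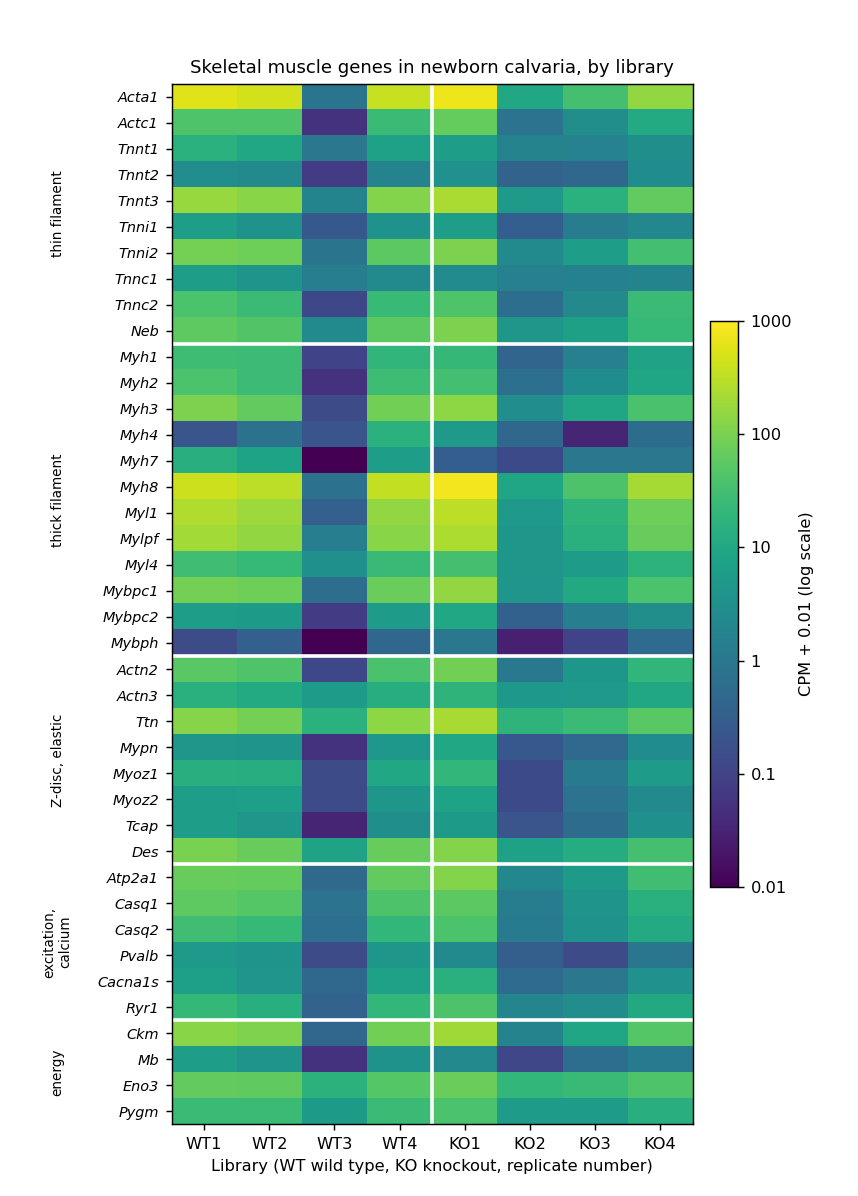
Level of each of the 40 genes (rows, grouped by role) in each of the 8 libraries (columns), as CPM plus 0.01 on a logarithmic colour scale. The columns of WT3, KO2 and KO3 are dark for nearly all genes, and WT3 is the lowest library for 35 of them.

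The promoters of 6 genes are shown because these genes stand for the embryonic, neonatal, fast and slow heavy chains, the skeletal actin and the muscle creatine kinase. Each line holds the 250 bases before the transcription start in RefSeq (build GRCm38.p6), read 5′ to 3′ on the gene's strand. Capitals mark matches to an E-box (CANNTG), to the MEF2 motif, to a CArG box or to TATAAA, searched on both strands. The windows are chr11:67078050-67078299 on the plus strand for embryonic Myh3, chr11:67276874-67277123 on the plus strand for neonatal Myh8, chr11:67199852-67200101 on the plus strand for IIx Myh1, chr14:54994627-54994876 on the minus strand for slow Myh7, chr8:123894776-123895025 on the minus strand for skeletal alpha-actin Acta1 and chr7:19410844-19411093 on the plus strand for muscle creatine kinase Ckm.
Myh3: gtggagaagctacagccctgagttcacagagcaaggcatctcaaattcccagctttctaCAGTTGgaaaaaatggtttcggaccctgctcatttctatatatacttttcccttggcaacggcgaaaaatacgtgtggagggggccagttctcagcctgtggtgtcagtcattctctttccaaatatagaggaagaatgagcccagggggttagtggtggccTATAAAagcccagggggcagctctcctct
Myh8: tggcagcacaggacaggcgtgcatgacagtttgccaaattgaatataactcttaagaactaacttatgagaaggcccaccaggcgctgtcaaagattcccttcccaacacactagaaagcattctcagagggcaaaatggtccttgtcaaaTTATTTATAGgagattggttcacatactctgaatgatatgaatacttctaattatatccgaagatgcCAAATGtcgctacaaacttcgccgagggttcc
Myh1: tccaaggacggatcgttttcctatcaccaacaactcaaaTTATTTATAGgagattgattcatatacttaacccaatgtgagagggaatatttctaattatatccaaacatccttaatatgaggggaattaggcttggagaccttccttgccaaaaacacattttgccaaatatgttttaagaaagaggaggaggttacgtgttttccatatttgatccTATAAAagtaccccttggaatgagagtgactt
Myh7: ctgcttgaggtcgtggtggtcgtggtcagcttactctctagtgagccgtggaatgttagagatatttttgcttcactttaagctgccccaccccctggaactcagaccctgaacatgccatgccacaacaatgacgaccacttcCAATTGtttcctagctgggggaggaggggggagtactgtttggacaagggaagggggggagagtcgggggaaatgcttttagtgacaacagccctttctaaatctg
Acta1: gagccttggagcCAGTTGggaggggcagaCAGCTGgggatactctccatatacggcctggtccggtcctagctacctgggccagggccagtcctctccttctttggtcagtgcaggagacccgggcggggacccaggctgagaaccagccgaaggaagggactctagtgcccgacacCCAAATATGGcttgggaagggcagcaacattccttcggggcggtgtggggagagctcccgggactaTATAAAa
Ckm: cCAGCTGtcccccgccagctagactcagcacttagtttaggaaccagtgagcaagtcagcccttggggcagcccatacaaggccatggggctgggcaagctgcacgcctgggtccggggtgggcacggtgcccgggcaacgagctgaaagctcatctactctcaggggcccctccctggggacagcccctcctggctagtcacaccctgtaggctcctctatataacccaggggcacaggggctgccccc

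The windows of Myh8 and Myh1 both held the MEF2 match TTATTTATAG, 99 to 90 bases before the start of Myh8 and 211 to 202 bases before that of Myh1, and in both the match overlaps a TATAAA on the reverse strand. The window of Acta1 held the CArG match CCAAATATGG 73 to 64 bases before the start, as well as 2 E-boxes and a TATAAA. Those of Myh3, Myh8, Myh7 and Ckm held 1 E-box each, and that of Myh1 held none. On the gene's strand, TATAAA lay 29 to 24 bases before the start of Myh3, 32 to 27 before that of Myh1 and 7 to 2 before that of Acta1. The RefSeq start lies 6318 bases from the gene start in the GENCODE annotation for Ckm, 50 for Myh1 and 24 for Acta1. Distances given here hold for the RefSeq start. RefSeq windows were at hand for 34 of the 40 genes. An E-box lay in 28 of them (82.4%, against 66.2% of all 32851 windows), a MEF2 match in 7 (20.6% against 2.92%), a CArG box in 3 (8.82% against 1.47%) and TATAAA in 9 (26.5% against 12.4%). These matches describe letters in the windows and do not show binding.

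Between the genotypes, none of the 40 genes passed the test. All 40 passed the filter on low counts, and in edgeR's quasi-likelihood test over 17743 genes 0 of 40 had an adjusted p (Benjamini-Hochberg) under 0.05, where 1.32% of all tested genes did (0.445% higher in knockout and 0.874% lower). At an unadjusted p under 0.05 there was 1 of the 40, Myh7, against 17.4% of all tested genes. For none of the 40 did the 4 knockout values lie wholly apart from the 4 wild type values, against 10.6% of all tested genes. DESeq2 called 0 of the 40, where it called 6.3% of the 15319 genes to which it gave an adjusted p. Limma-voom called 0 of the 40, where it called 0.941% of all tested genes. At an unadjusted p under 0.05 DESeq2 had 2 of the 40 and limma-voom 0, against 3253 and 3112 of the 17743 tested genes. DESeq2 gave Myh4 and Mybph no adjusted p.

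The absence of calls came with a wide spread within each genotype. The SD of log2 CPM within groups had a median of 2.60 over the 40 genes, against 0.170 over all tested genes, and 20 of the 40 most variable of the 17743 genes were muscle genes of this list. The fitted log2 changes, knockout over wild type, had a median of -0.42 and lay below 0 for 36 genes and above 0 for 4, against a median of about 0 (-0.000295) over all tested genes, and their standard errors had a median of 1.36, against 0.115 over all tested genes. The size of this median depended on the libraries in the fit. Leaving out 1 library gave a median of -0.12 without WT1, -0.82 without WT3, -1.90 without KO1 and -0.05 without KO2. Without WT3, KO2 and KO3 (3 wild type against 2 knockout libraries left) the median was 0.04, with 23 genes above 0 and 17 below. In that fit edgeR called 0 of the 40, where it called only 8 of all 18435 tested genes. At an unadjusted p under 0.05 it had 6 of the 40, against 1553 of all tested genes. Each role had a median near that of the whole list: -0.47 for the 10 thin filament genes, -0.47 for the 12 thick filament genes, -0.35 for the 8 Z-disc and elastic genes, -0.39 for the 6 excitation and calcium genes and -0.37 for the 4 genes of energy metabolism.

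**Figure D2:**
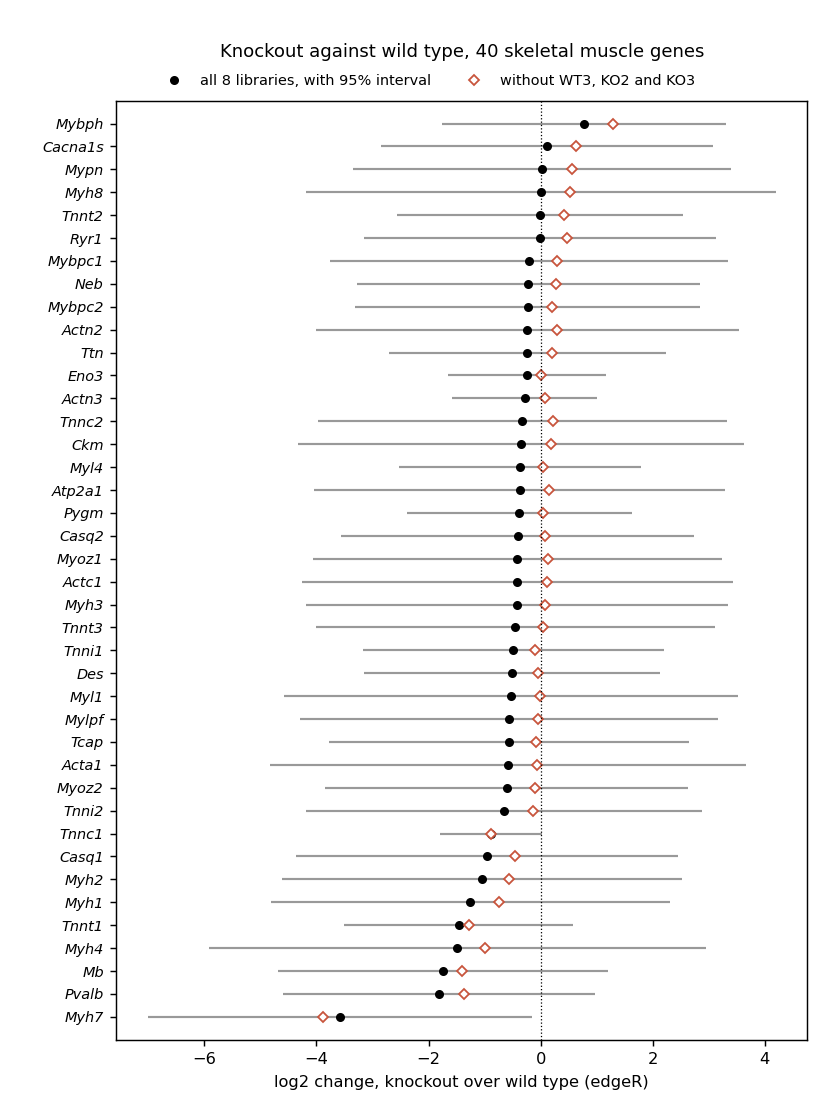
Fitted log2 change of each gene, knockout over wild type, in edgeR, with black points and 95% intervals from all 8 libraries and open diamonds from the 5 libraries left without WT3, KO2 and KO3. The interval crosses 0 for every gene but Myh7, and most diamonds lie close to 0, with Myh7 at -3.89.

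Among thin filament genes, Acta1, the main actin of skeletal muscle, had 579, 458, 0.827 and 375 CPM in WT1 to WT4 and 742, 9.56, 33.6 and 158 CPM in KO1 to KO4. Its mean was 353 ± 249 CPM (SD, n = 4) in wild type and 236 ± 344 CPM (SD, n = 4) in knockout, with a log2 change of -0.58 ± 1.75 (SE) and an adjusted p of 0.901 in edgeR. The highest and the lowest Acta1 values of a library (KO1 and WT3) belonged to different genotypes, and the groups overlapped over most of their range. Actc1, the cardiac actin that developing skeletal fibres also express, had 42.7, 41.6, 0.0447 and 26 CPM in WT1 to WT4 and 67.3, 0.781, 2.94 and 11.6 CPM in KO1 to KO4. It followed the same order of libraries as Acta1, and WT3 held 2 counts of it.

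The troponin complex, which carries the calcium signal to actin, had higher median levels of its fast subunits than of its slow ones, at 56.6 CPM per kb of exon for Tnnt3, 31.5 for Tnnc2 and 28.9 for Tnni2, against 2.04 for slow Tnnt1, 2.04 for slow Tnnc1 and 0.781 for slow Tnni1. Fast Tnnt3, the tropomyosin-binding subunit, had 173, 132, 1.81 and 117 CPM in wild type and 227, 4.97, 15.7 and 62.5 CPM in knockout, in replicate order. The inhibitory subunit of fast fibres, Tnni2, had 89.1, 80.1, 0.827 and 54 CPM in wild type and 101, 2.31, 6.19 and 32.6 CPM in knockout. Fast Tnnc2, the calcium-binding subunit, had 38.4, 25.8, 0.112 and 24.6 CPM in wild type and 42.2, 0.621, 2.28 and 26.1 CPM in knockout. All 3 fast subunits were lowest in WT3 and highest in KO1. Tnnt3 lay above Tnnt1, and Tnni2 above Tnni1, per kilobase in all 8 libraries. Troponin C was the exception in the poorest libraries, where slow Tnnc1 lay above Tnnc2, at 1.31 against 0.140 CPM per kb in WT3 and 1.41 against 0.776 in KO2.

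The slow troponins differed less between libraries, by 16.6-fold from lowest to highest for Tnnt1 and 28.6-fold for Tnni1, against 125-fold for Tnnt3 and 122-fold for Tnni2. Tnnt1, the slow troponin T, had 15.9, 9.79, 0.961 and 7.25 CPM in WT1 to WT4 and 5.97, 1.74, 1.6 and 3.02 CPM in KO1 to KO4. Slow Tnnc1, which the heart also uses, had 5.94, 3.92, 1.36 and 2.44 CPM in WT1 to WT4 and 2.58, 1.47, 1.54 and 1.8 CPM in KO1 to KO4. Tnnt1 and Tnnc1 were highest in WT1 and not in KO1, the library with most muscle RNA, and KO1 lay below WT2 for both. The log2 change of Tnnc1 was -0.89 ± 0.403 (SE) with an edgeR adjusted p of 0.295 and that of Tnnt1 -1.46 ± 0.844 (SE) with an adjusted p of 0.430, the smallest p-values after that of Myh7 among the genes lower in knockout. Neither passed the test, and the groups overlapped. Slow Tnni1 had 6.39, 3.68, 0.224 and 3.58 CPM in WT1 to WT4 and 6.32, 0.302, 1.27 and 2.04 CPM in KO1 to KO4, so that WT1 and KO1 were nearly equal. Tnnt2, the cardiac troponin T that embryonic skeletal fibres also express, had 2.77, 2.38, 0.0671 and 1.72 CPM in WT1 to WT4 and 3.42, 0.373, 0.474 and 2.67 CPM in KO1 to KO4. Neb, which encodes the giant thin filament protein nebulin, ranged from 2.37 to 103 CPM over the 8 libraries, lowest in WT3 and highest in KO1.

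In the thick filament, neonatal Myh8 was the most abundant myosin heavy chain in each of the 8 libraries, ahead of embryonic Myh3. Myh8 had 409, 312, 0.715 and 353 CPM in WT1 to WT4 and 815, 9.17, 39.9 and 214 CPM in KO1 to KO4. The mean was 269 ± 183 CPM (SD, n = 4) in wild type and 269.7 ± 375 CPM (SD, n = 4) in knockout, and the log2 change of 0.005 had a standard error of 1.72 and an edgeR adjusted p of 0.999. KO1 held the highest value and WT3 the lowest, so that the nearly equal means stood beside a wide spread within each group. Embryonic Myh3 had 103, 62.7, 0.134 and 84.7 CPM in WT1 to WT4 and 139, 2.79, 9.24 and 36.5 CPM in KO1 to KO4. It followed the same libraries as Myh8.

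Per kilobase of exon the adult fast chains were lower, with medians of 2.15 CPM per kb for Myh1, 2.51 for Myh2 and 0.0858 for Myh4 against 22.4 for Myh8 and 8.19 for Myh3. IIx Myh1 had 27.6, 26.7, 0.0894 and 19.8 CPM in WT1 to WT4 and 21.6, 0.426, 1.47 and 7.53 CPM in KO1 to KO4, and IIa Myh2 had 37.5, 26.9, 0.0447 and 27.7 CPM and 32.4, 0.656, 2.73 and 8.92 CPM in the same order. Both were highest in WT1 and lowest in WT3. IIb Myh4 had 0.202, 0.769, 0.201 and 15.7 CPM in WT1 to WT4 and 4.96, 0.461, 0.0226 and 0.571 CPM in KO1 to KO4. Its order of libraries was its own: WT4 stood far above the other wild type libraries and KO1 above the other knockout libraries, while WT1, rich in all other heavy chains, had 9 Myh4 counts.

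Slow Myh7 had the smallest p-value of the 40 genes. Its values were 14.1, 8.05, 0 and 6.17 CPM in WT1 to WT4 and 0.303, 0.124, 0.994 and 1.01 CPM in KO1 to KO4. The 3 wild type libraries with muscle RNA lay between 6.17 and 14.1 CPM and all 4 knockout libraries at or below 1.01 CPM, but WT3 held no Myh7 count, which allows up to 3 counts or 0.0671 CPM, and so the groups overlapped. KO1, the library richest in muscle RNA, held 14 Myh7 counts against 628 in WT1. The mean was 7.09 ± 5.82 CPM (SD, n = 4) in wild type and 0.607 ± 0.460 CPM (SD, n = 4) in knockout. The log2 change was -3.58 ± 1.41 (SE), with an unadjusted p of 0.0428 and an adjusted p of 0.271 in edgeR, which missed the threshold. Without WT3, KO2 and KO3 it was -3.89 ± 0.625 (SE, 3 wild type against 2 knockout libraries) with an adjusted p of 0.254 in edgeR, and without WT3 alone it was -4.00. Because fitted changes against few counts depend on the model's prior count, these values are not bounds.

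As shares of the 6 heavy chains, taken from counts per kilobase of exon, Myh8 made up 55.1%, 57.8%, 44.5% and 55.3% in WT1 to WT4 and 68.6%, 52.3%, 60% and 67.7% in KO1 to KO4. Myh3 made up 27%, 22.6%, 16.2% and 25.7% in WT1 to WT4 and 22.7%, 30.9%, 27% and 22.4% in KO1 to KO4. The neonatal and embryonic chains therefore filled most of the heavy chain level in each library, also in the 3 libraries low in muscle RNA. With the length of the longest transcript in place of all exons, the Myh8 share ran from 59.9% to 80.2%, because the annotated exons of Myh8 (11.8 kb) exceed its longest transcript (6.15 kb).

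Of the adult chains, Myh1 made up 6.9%, 9.16%, 10.3% and 5.74% in WT1 to WT4 and 3.37%, 4.5%, 4.09% and 4.41% in KO1 to KO4. All 4 knockout shares lay below all 4 wild type shares, with means of 8.02% ± 2.08 (SD, n = 4) and 4.09% ± 0.512 (SD, n = 4), a difference of -3.93 percentage points. The exact two-sided permutation p was 0.0286, the smallest that 4 against 4 libraries can give, and the adjusted p over the 16 shares tested was 0.457. The Myh1 share of WT3 rested on 4 Myh1 counts among 53 heavy chain counts, and without WT3 the difference was -3.17 points (exact permutation p = 0.0286). Myh1 was the sole share of the 16 without overlap between the groups, and it did not pass the correction. With 16 shares tested, 1 share alone at the smallest possible p could not have passed it. The transcript of Myh1 shares 32.1% of its 50-base windows with other genes, mostly with Myh2, and the handling of reads that match both is not given in the sources used here.

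IIa Myh2 made up 8.35%, 8.2%, 4.58% and 7.14% of the heavy chains in WT1 to WT4 and 4.49%, 6.18%, 6.78% and 4.65% in KO1 to KO4. Slow Myh7 made up 2.6%, 2.04%, 0% and 1.32% in WT1 to WT4 and 0.0348%, 0.968%, 2.04% and 0.435% in KO1 to KO4 (exact permutation p = 0.457). KO1 and KO4 had the lowest Myh7 shares of the 5 libraries rich in muscle RNA, and KO3 reached a share as high as that of WT2. Fast IIb Myh4 made up 0.0534%, 0.279%, 24.5% and 4.8% in WT1 to WT4 and 0.816%, 5.15%, 0.0664% and 0.353% in KO1 to KO4, and the share of WT3 rested on 9 Myh4 counts.

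**Figure D3:**
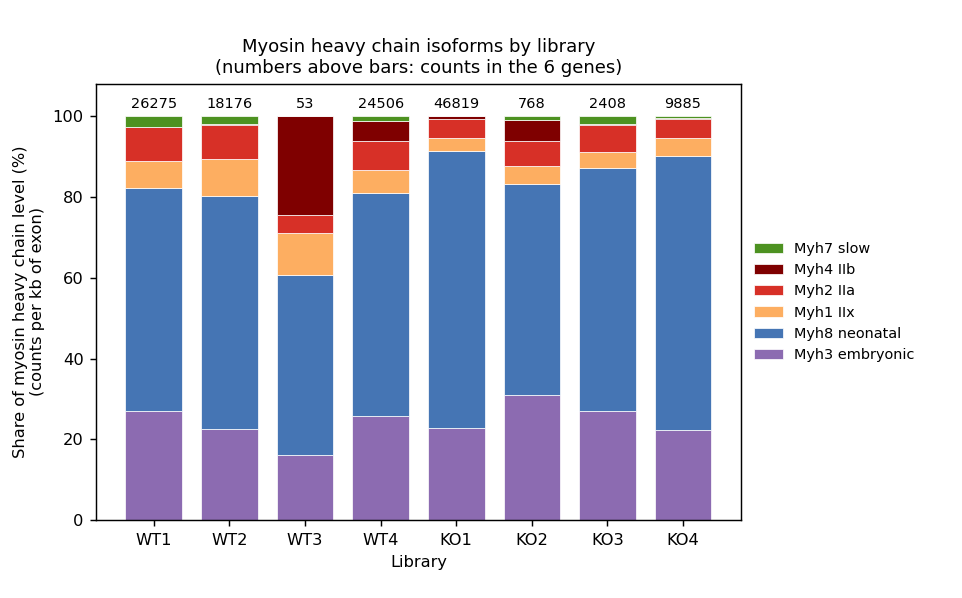
Shares of the 6 myosin heavy chains (percent of summed counts per kilobase of exon) in each library, with the counts behind each bar above it. Myh8 and Myh3 fill most of every bar, the Myh1 band is narrower in the 4 knockout libraries, and the WT3 bar rests on 53 counts.

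The fast light chains Myl1 and Mylpf ranked the 8 libraries in the same order as Acta1. Myl1, the fast essential light chain, had 259, 186, 0.335 and 156 CPM in WT1 to WT4 and 317, 4.83, 17.5 and 78.5 CPM in KO1 to KO4. Mylpf, the fast regulatory light chain, had 203, 153, 1.34 and 128 CPM in WT1 to WT4 and 239, 4.36, 15.3 and 69.7 CPM in KO1 to KO4. Per kilobase of exon, the median levels of Acta1 (173 CPM per kb), Mylpf (92.9) and Myl1 (56.6) were the highest of the 40 genes and those of Myh4 (0.0858), Mybph (0.101) and Myh7 (0.116) the lowest. The order differed by library. Acta1, Mylpf and Myl1 were the top 3 in WT1, WT2, WT4 and KO1, whereas Eno3 was the highest in WT3 (9.32 CPM per kb, against 0.539 for Acta1 and 0.162 for Myl1) and in KO2 (11.6, against 6.22 for Acta1). Myh7 reached 1.64 CPM per kb in WT1. Neighbours in this order were not tested against each other. Myl1 and Tnnt3 (both 56.6 CPM per kb) changed places, with Myl1 higher in WT1, WT2, WT4 and KO1 and Tnnt3 higher in WT3, KO2, KO3 and KO4. Myl4, an essential light chain of embryonic muscle and of the atrium, had 29.4, 22.3, 3.2 and 23.8 CPM in WT1 to WT4 and 33.9, 4.42, 5.56 and 17.2 CPM in KO1 to KO4, and spanned 10.6-fold over the libraries against 945-fold for Myl1.

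Of the myosin-binding proteins C, which brace the thick filament, slow-type Mybpc1 ranged from 0.626 to 158 CPM and fast-type Mybpc2 from 0.0671 to 9.96 CPM over the 8 libraries. Mybpc1 made up 86.2% to 92.7% of their summed level per kilobase in each library, low ones included. Mybph, a relative of these proteins, had 0.135, 0.337, 0 and 0.456 CPM in WT1 to WT4 and 0.974, 0.0177, 0.0904 and 0.544 CPM in KO1 to KO4, or at most 45 counts in a library. It had the smallest p of the genes higher in knockout, with a log2 change of 0.77 ± 1.1 (SE) and an edgeR adjusted p of 0.766, and of its exon bases 49.9% overlap Adora1 on the opposite strand.

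Z-disc and elastic genes anchor the filaments and give the sarcomere its spring. Titin, encoded by Ttn, had 125, 90, 15.3 and 139 CPM in WT1 to WT4 and 217, 17.6, 26.1 and 51.8 CPM in KO1 to KO4. Desmin, the muscle intermediate filament encoded by Des, had 96.8, 69.2, 7.71 and 68.8 CPM in WT1 to WT4 and 117, 7.24, 12.5 and 33.4 CPM in KO1 to KO4. Both spanned less than most of the 40 genes, 14.2-fold for Ttn and 16.2-fold for Des. Myopalladin, a Z-disc protein encoded by Mypn, had 4.48, 3.94, 0.0447 and 4.64 CPM in WT1 to WT4 and 9.98, 0.231, 0.497 and 2.67 CPM in KO1 to KO4. Its log2 change was 0.03 ± 1.39 (SE) with an edgeR adjusted p of 0.995, one of the 3 smallest p-values of the genes higher in knockout. Alpha-actinin 2 (Actn2), the main crosslinker of actin at the Z-disc, ranged from 0.112 to 87.9 CPM, while the fast-fibre form Actn3 ranged from 4.67 to 17.8 CPM. The Z-disc proteins Myoz1, Myoz2 and Tcap ranged from 0.124 to 20.3, 0.124 to 8.12 and 0.0224 to 6.23 CPM.

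In the calcium-handling group, Atp2a1, the fast calcium pump of the sarcoplasmic reticulum, had 69.6, 66.1, 0.537 and 63 CPM in WT1 to WT4 and 118, 2.18, 5.31 and 29 CPM in KO1 to KO4. Ryr1, the calcium release channel, had 21.2, 13.4, 0.358 and 20.5 CPM in WT1 to WT4 and 39.5, 1.9, 2.78 and 10.9 CPM in KO1 to KO4. Its voltage sensor, the calcium channel subunit Cacna1s, had 6.7, 4.09, 0.469 and 7.16 CPM in WT1 to WT4 and 15, 0.550, 0.949 and 3.32 CPM in KO1 to KO4. The log2 change of Cacna1s was 0.11 ± 1.22 (SE) with an edgeR adjusted p of 0.976, and all 3 genes were highest in KO1 and lowest in WT3. Parvalbumin (Pvalb), a calcium buffer of fast fibres, ranged from 0.134 to 4.9 CPM.

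Calsequestrins store calcium in the reticulum, Casq1 mainly in fast fibres and Casq2 in slow fibres and the heart. Casq1 had 57.4, 47, 0.782 and 40.5 CPM in WT1 to WT4 and 55.1, 1.24, 3.8 and 15 CPM in KO1 to KO4, and Casq2 had 29.3, 22.7, 0.648 and 20.1 CPM and 38.7, 1.15, 3.5 and 11.4 CPM in the same order. The log2 change of Casq1 was -0.96 ± 1.4 (SE) with an edgeR adjusted p of 0.777. As a share of both genes per kilobase, Casq2 made up 26.7%, 25.6%, 37.1% and 26.2% in WT1 to WT4 and 33.4%, 39.8%, 39.7% and 35.1% in KO1 to KO4. The 4 knockout shares were higher than those of WT1, WT2 and WT4, and WT3 lay among the knockout libraries. The means were 28.9% ± 5.50 (SD, n = 4) and 37.0% ± 3.26 (SD, n = 4), with an exact permutation p of 0.0857 (0.64 adjusted over 16 shares). Without WT3 the difference grew from 8.09 to 10.8 points (exact permutation p = 0.0286, adjusted p = 0.229). Casq1 lies 101 kb from Kcnj9 on chromosome 1 (172209894 to 172219868 in GRCm38), the nearest of the 40 genes to the targeted locus, and any part of that position in its values was not tested.

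For energy metabolism, Ckm, the creatine kinase that buffers ATP at the myofibrils, had 126, 109.9, 0.447 and 87.9 CPM in WT1 to WT4 and 195, 1.74, 8.88 and 48.3 CPM in KO1 to KO4. Eno3, the muscle enolase of glycolysis, had 63.2, 60.2, 16.2 and 48.8 CPM in WT1 to WT4 and 73.9, 20.2, 24 and 41.3 CPM in KO1 to KO4. Ckm spanned 437-fold over the libraries and Eno3 4.56-fold, in the same order of low and high libraries. Mb, the oxygen-binding myoglobin of oxidative fibres, had 6.37, 3.92, 0.0447 and 3.46 CPM in WT1 to WT4 and 2.21, 0.106, 0.633 and 1.2 CPM in KO1 to KO4, so that KO1 lay below WT1, WT2 and WT4. Pygm, the muscle glycogen phosphorylase, ranged from 5.21 to 38.2 CPM.

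In several other isoform families the shares differed between libraries rich and poor in muscle RNA. Slow Tnnc1 made up 10.6%, 10.5%, 90.4% and 7.1% of the troponin C level per kilobase in WT1 to WT4 and 4.48%, 64.6%, 34.1% and 5.02% in KO1 to KO4. Myl4 made up 4.83%, 5.08%, 81% and 6.37% of Myl1 and Myl4 in WT1 to WT4 and 4.56%, 29.1%, 12.4% and 8.93% in KO1 to KO4. Actn2 made up 73.6%, 73.7%, 1.54% and 68.2% of both alpha-actinins in WT1 to WT4 and 79.1%, 14.8%, 41.3% and 60.7% in KO1 to KO4. In each of these families WT3, KO2 and KO3 were the 3 libraries at one end, in both genotypes. By contrast Actc1 stayed between 4.88% and 7.94% of the 2 actins in all 8 libraries. Of the 16 shares tested, 0 passed the correction, 1 had an unadjusted exact permutation p under 0.05, and the smallest adjusted p was 0.457.

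**Figure D4:**
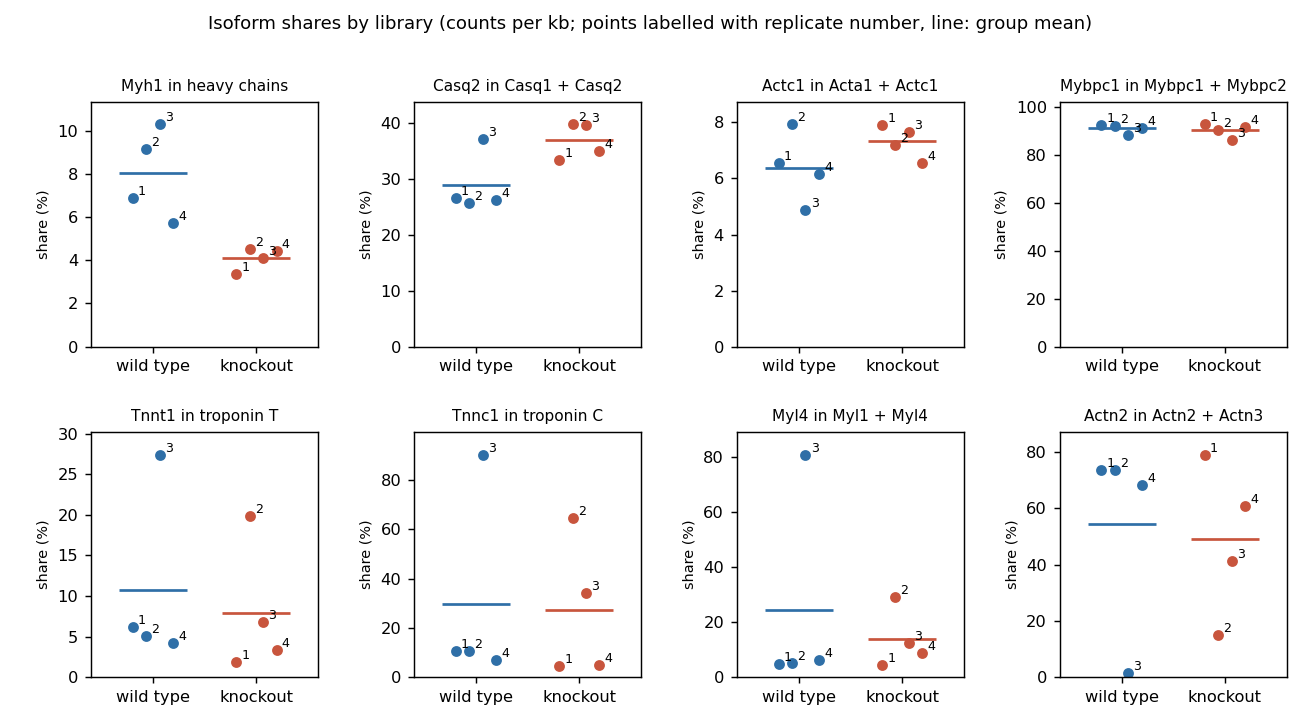
Shares of 8 isoforms in their families by genotype (percent of summed counts per kilobase; points are libraries labelled with the replicate number, lines are group means). The groups are apart for Myh1, and for Tnnc1, Myl4 and Actn2 the points labelled 3 in wild type and 2 and 3 in knockout stand away from the others.

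To set each gene against the typical muscle gene of its library, the log2 ratio to WT1 was taken and the median over the 40 genes was subtracted, which gives values with no test. That median was -0.36 in WT2, -0.50 in WT4, 0.37 in KO1 and -1.37 in KO4, but -6.29 in WT3, -4.80 in KO2 and -3.31 in KO3. Of the 40 genes, 38 in WT2, 30 in WT4, 26 in KO1 and 25 in KO4 lay within 0.5 of it. The genes furthest below it in KO1, named after their values were seen, were Myh7 (-5.86), Mb (-1.89), Tnnt1 (-1.78), Tnnc1 (-1.57) and Pvalb (-1.38). These 5 genes are not all of slow fibres, since Pvalb is a calcium buffer of fast fibres. Some genes of slow fibres lay nearer to the median in KO1, with Mybpc1 at 0.41, Casq2 at 0.03, Myoz2 at 0.01 and Tnni1 at -0.39. In KO4 the same 5 genes lay at -2.42, -1.02, -1.02, -0.34 and -1.01, while they lay between -0.45 and 0.00 in WT2 and between -0.78 and 0.35 in WT4. In KO2, one of the 3 low libraries, Tnnt1 and Tnnc1 lay above the median, at 1.61 and 2.79. Casq1 lay at -0.43, -0.72, -0.61 and -0.56 in KO1 to KO4 and at 0, 0.07, 0.11 and -0.01 in WT1 to WT4. How many of the 40 genes part by genotype on this measure was not counted. In CPM the groups of Casq1 overlapped, with an edgeR adjusted p of 0.777.

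**Figure D5:**
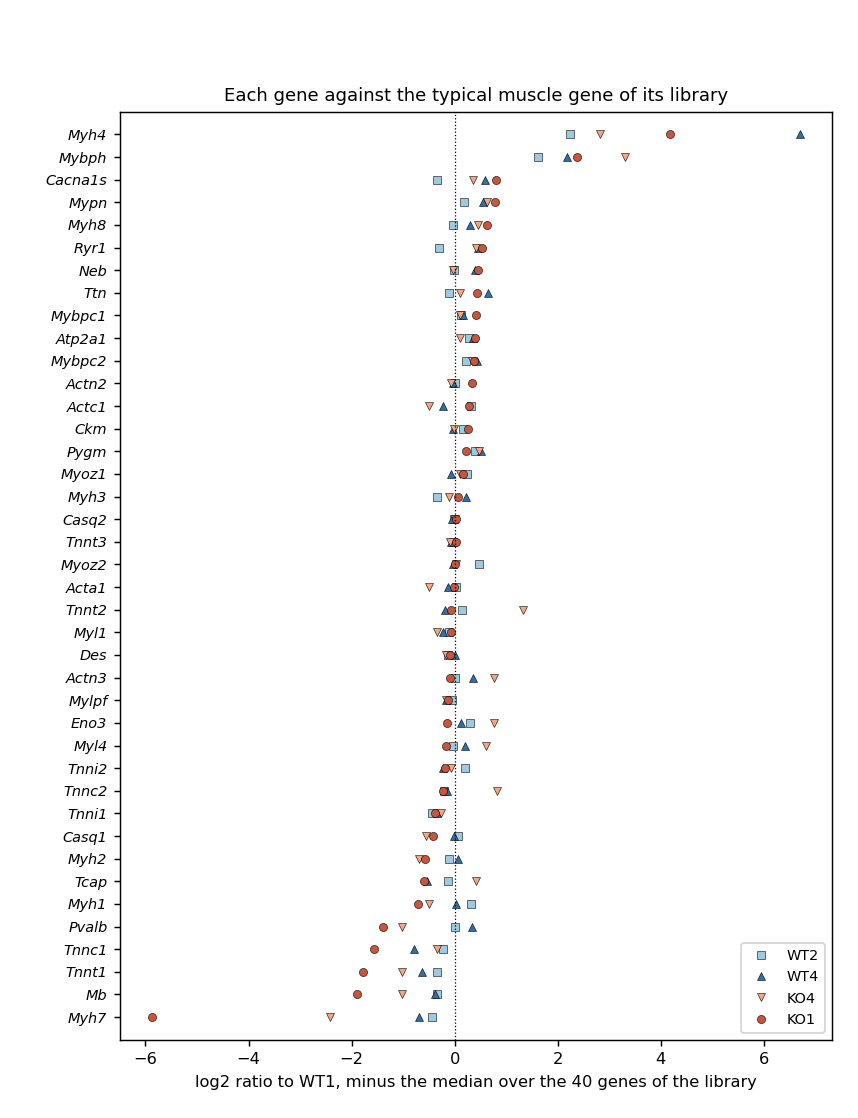
Log2 ratio of each gene to its level in WT1, minus the median of the 40 genes in that library, for the 4 other libraries rich in muscle RNA (WT2, WT4, KO1, KO4). Most genes lie near 0, and Myh7 lies at -5.86 in KO1 and -2.42 in KO4.

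A further 48 genes of the sarcomere, the triad, the neuromuscular junction and muscle metabolism were read from the same fit. None of the 48 passed the test in edgeR, 44 lay below 0 and 4 above, their median log2 change was -0.26, and 3 had an unadjusted p under 0.05, where edgeR called 1.32% of all tested genes and 17.4% had such an unadjusted p. Without WT3, KO2 and KO3 edgeR called 0 of the 48, where it called only 8 of all 18435 tested genes. In that fit 6 of the 48 had an unadjusted p under 0.05, against 1553 of all tested genes. The median log2 change of the 48 was then 0.07, and 30 lay above 0 and 18 below. The slow and ventricular light chain genes had the smallest p-values among those lower in knockout. Myl3 had 3.94, 2.89, 1.12 and 2.07 CPM in WT1 to WT4 and 1.36, 1.24, 1.22 and 0.898 CPM in KO1 to KO4, a log2 change of -1.08 ± 0.325 (SE) with an edgeR adjusted p of 0.129. Myl2 had 4.03, 2.24, 0.134 and 1.01 CPM in WT1 to WT4 and 0.260, 0.337, 0.384 and 0.190 CPM in KO1 to KO4, a log2 change of -2.63 ± 0.852 (SE) with an adjusted p of 0.180 in edgeR. In both, WT3 lay among or below the knockout libraries and the other 3 wild type libraries above them. Of those higher in knockout, Fbxo32, the ubiquitin ligase atrogin-1, had 15.8, 20.2, 19.9 and 17.6 CPM in WT1 to WT4 and 23.9, 23.7, 22 and 20.9 CPM in KO1 to KO4, with no overlap and an edgeR adjusted p of 0.133. Fbxo32 was not low in WT3, KO2 or KO3, and 10.6% of all tested genes likewise had groups without overlap. Chrnd, the delta subunit of the acetylcholine receptor, reached at most 1.97 CPM and had a log2 change of 1.19 ± 1.48 (SE) with an edgeR adjusted p of 0.733. DESeq2 called 3 of the 48, Myl2 and Myl3 lower and Fbxo32 higher, where it called 965 of the 15319 genes to which it gave an adjusted p (6.3%), which left out Chrnd, Chrng, Chrna1, Musk and Trim63. Without WT3 edgeR called Myl2 alone, where it called 0.413% of all tested genes.

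The labelled tissue is bone, and the muscle signal was checked against lists of other muscle. Myod1, a regulator of the skeletal muscle lineage, had 1.82, 1.76, 0 and 1.84 CPM in WT1 to WT4 and 3.77, 0.0710, 0.158 and 0.734 CPM in KO1 to KO4, low in the same 3 libraries as the 40 genes. Myog, Myf5, Myf6, Pax7, Mymk and Mymx were low in these libraries too. Mef2c was not, at 224, 228, 223 and 223 CPM in WT1 to WT4 and 290, 282, 312 and 204 CPM in KO1 to KO4. Pax3 reached at most 0.136 CPM and was not low in KO2 (0.124 CPM). Of 9 myogenic regulators 8 could be tested and edgeR called 0, where it called 1.32% of all tested genes. Of 9 heart markers, Nppa, Nppb, Myl7, Nkx2-5 and Hand2 lay at or near 0, with at most 0.190 CPM in any library. The other 4 were detected in all libraries, Tnni3 from 2.16 to 3.26 CPM, Myh6 from 0.584 to 0.984, Tbx20 from 0.402 to 0.952 and Mybpc3 from 0.152 to 0.529. EdgeR called 0 of these 4, against the same 1.32% of all tested genes. The list summed to between 3.91 and 4.81 CPM. The 6 smooth muscle markers summed to between 337 and 427 CPM, with WT3 lowest and WT4 highest. Whether the amount of muscle left on the dissected bone set the level of the 40 genes was not tested.

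Counting limits touch some of these genes. Exons of Tnnc2 overlap Ube2c on the opposite strand over 74.0% of their bases, those of Mb overlap other genes over 31.9%, those of Atp2a1 overlap Rabep2 over 21.9%, those of Cacna1s over 20%, those of Ckm over 15.5% and those of Myh7 over 13.3%. Reads of a gene and of its antisense partner may not be told apart, since nothing at hand names the strand setting of the counting. The heavy chain genes Myh3, Myh2, Myh1, Myh4 and Myh8 lie in that order on chromosome 11 (67078300 to 67308634 in GRCm38) and share sequence. Of all 50-base windows of the longest transcript, 28.9% of Myh2, 21.4% of Myh8, 18.9% of Myh4 and 4.81% of Myh3 also occurred in other genes. Myh7, on chromosome 14, shared 28.3%, mostly with the heart gene Myh6, which had 0.900, 0.841, 0.984 and 0.849 CPM in WT1 to WT4 and 0.584, 0.851, 0.746 and 0.952 CPM in KO1 to KO4. Levels of these chains are therefore uncertain where the counting could split such reads.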

How the data were processed

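RNA of whole calvaria from 4 wild type and 4 Girk3-/- mice was sequenced, and the authors deposited a table of raw counts per Ensembl gene ID. Per the labels' protocols, RNA was extracted with Trizol and a Direct-zol kit and libraries were made with NEBNext Ultra II. Per the submitters' processing notes, bcl2fastq 2.17, STAR 2.5.2b, featureCounts and Subread 1.5.2 were used with build mm10, and the annotation release, the strand setting and the handling of multi-mapping reads were not given in the sources used here. Symbols, exon lengths and overlaps came from GENCODE release M21 (GRCm38), which named 49056 of the 49315 IDs.

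The 40 genes and the further lists were chosen with earlier results of these data known. Counts were tested with edgeR 4.0.16 (R 4.3.3) by its quasi-likelihood test, with TMM scaling (factors 0.972 to 1.04) and filterByExpr with a minimum count of 10, which kept 17743 genes with 99.9% of counts. P-values were adjusted by Benjamini and Hochberg over all of them, with a threshold of 0.05, and no p was adjusted over the list. The fit was tested on simulated data with 200 changed genes. Isoform shares were taken from counts per kilobase of union exon length and tested by exact two-sided permutation of 4 against 4 libraries. One count equals 0.0177 to 0.0272 CPM, and a count of 0 allows up to 3 counts, for counting error only. The edgeR p-values set the difference between genotypes against the spread of libraries within them, and the permutation p-values against relabelled groups. Promoters came from RefSeq (GRCm38.p6). Values in every library are given for the heavy chains and a set of 21 further genes, and for the 3 with the smallest p on each side. DESeq2 1.42.0, limma-voom (limma 3.58.1), other scalings and filters, a replicate block and fits without single libraries or without WT3, KO2 and KO3 were the alternatives. Same-numbered libraries did not deviate together in all pairs (r = 0.255, -0.179, 0.340 and -0.00498 over genes), so the numbers were not taken as pairs.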

Additional observations from a re-analysis of the deposited data

Results flagged for a closer look

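Of 112 groups of 4 libraries examined, 14 held a library far from the other 3 of its genotype. Chance gives about 1 in 20, or 5.6, for independent and normally distributed values. The groups are genes and shares of the same 8 libraries and rise and fall together, so 14 against 5.6 does not measure an excess. Their cause was not tested.

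WT3 stood below the other wild type libraries for Mybpc2 (0.0671 CPM against 5.41 to 5.96), Mypn (0.0447 CPM against 3.94 to 4.64), Atp2a1 (0.537 CPM against 63.0 to 69.6) and Pygm (5.21 CPM against 25.3 to 25.8), genes whose other 3 wild type values lie close together. In knockout, KO1 stood above for Actc1 (67.3 CPM against 0.781 to 11.6). The IIb heavy chain Myh4 stood out in both genotypes, at 15.7 CPM in WT4 against 0.201 to 0.769 CPM and at 4.96 CPM in KO1 against 0.0226 to 0.571 CPM.

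Among shares, WT3 stood apart for Tnnt1 (27.5% against 4.25% to 6.19%), Tnni1 (10.1% against 1.87% to 2.90%), Tnnc1 (90.4% against 7.10% to 10.6%), Myl4 (81.0% against 4.83% to 6.37%), Actn2 (1.54% against 68.2% to 73.7%) and Casq2 (37.1% against 25.6% to 26.7%). The Myh4 share stood at 5.15% in KO2 against 0.0664% to 0.816% in the other knockout libraries. In WT3 the families behind these shares held 127 counts for Tnnt1, 47 for Tnni1, 66 for Tnnc1, 158 for Myl4, 249 for Actn2 and 64 for Casq2.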

How the results depend on the processing

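None of the 40 genes was called under any of the 18 alternatives run, DESeq2 and limma-voom included, and 0 of the 16 isoform shares passed under any of the 13 run for them. The median log2 change of the 40 genes stayed below 0 except without WT3, KO2 and KO3, where it was 0.04, and ran from -1.90 (without KO1) to -0.05 (without KO2) when 1 library was left out. The number of genes called among all tested, 234, was 355 with no filter on low counts, 126 with the replicate block (22 higher and 104 lower), 8 without the 3 libraries and 965 with DESeq2, and ran from 57 (without KO2) to 608 (without KO4) on leaving out 1 library, with 79, 75, 105 and 82 without WT2, WT3, WT4 and KO3. With library totals alone 212 were called, 113 higher and 99 lower against 79 and 155 with TMM. The genes called in each setting were not compared with one another. Of the 48 further muscle genes DESeq2 called 3, and leaving out 1 library gave 0 to 1. The cause of these shifts was not tested. Log2 changes near 0 turned sign. That of Myh8 was -0.0043 with no filter and ran from -1.62 to 0.41 on leaving out 1 library. That of Cacna1s was -0.44 with the replicate block, -0.56 with limma-voom and -1.55 to 0.49 on leaving out 1 library. That of Mypn was -0.38, -0.27 and -1.58 to 0.43 in the same settings, and that of Mybph ran from -0.20 to 1.35 on leaving out 1 library. For all 4 genes the lowest value came without KO1. Changes of Acta1, Casq1, Myh7, Tnnc1 and Tnnt1 kept their sign and side of the threshold in every alternative. In WT3, 9 of the 40 genes had at most 3 counts, so a lower level could not be detected there at this depth.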
